A study of Homo sapiens with 30 samples.

Results

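The BCL2 family decides whether a cell commits to mitochondrial apoptosis, and 10 of its genes were followed here across 2 histone marks. They were the anti-apoptotic genes BCL2, BCL2L1, MCL1 and BCL2A1, the BH3-only genes BCL2L11, BBC3, PMAIP1 and BID, and the effector genes BAX and BAK1. A peak belonged to a gene when it lay inside the gene or within 5 kb of it, by RefSeq positions on GRCh38. This gave 130 peaks for the 10 genes, out of 59788 genes in the RefSeq table. H3K4me3 contributed 26 of its 21268 peaks and H3K27ac 104 of its 63580. The filter on low counts kept 25 and 94 of them for testing.

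The study treated OCI-Ly1 cells with JIB-04 and asked, by its title, about heterochromatin fidelity as a weak point of lymphoma. OCI-Ly1 is an established line from a human diffuse large B-cell lymphoma, and JIB-04 is a small molecule that inhibits Jumonji histone demethylases. The 3 groups were the DMSO vehicle, 150 nM JIB-04 and 500 nM JIB-04, with no time of treatment in the labels, all from this 1 line. Each group had 2 libraries per mark, so every mean ± SD below has n = 2, and the 12 libraries of H3K4me3 and H3K27ac were used out of 30 in the series. Input, H3K9me2 and H3K9me3 libraries were not analysed here.

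In the intrinsic pathway, anti-apoptotic members hold the effectors BAX and BAK1 in check, and BH3-only proteins relieve that block or activate the effectors directly. Activated BAX and BAK1 permeabilise the outer mitochondrial membrane and release cytochrome c. Germinal centre B cells normally keep BCL2 low, and many lymphomas of germinal centre origin express it because a translocation places it under immunoglobulin heavy chain control. OCI-Ly1 is known to carry such a translocation, whose breakpoint was not analysed here. H3K4me3 marks active promoters, and H3K27ac marks active promoters and enhancers.

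H3K4me3 libraries held 9686420 to 12327122 counts in peaks and H3K27ac libraries 4360660 to 5410292, with median counts per peak of 263 to 328 and 21 to 24. Levels are given as CPM, the count scaled by TMM to the library's total over tested peaks, and a change shared by every peak of a mark is therefore not measured. Nothing in the labels says that replicates came from separate cultures, so p-values measure the spread between these libraries, which may be technical. All 8 B-cell markers checked had an H3K4me3 peak at a gene end, with mean levels of 53.4 to 470 CPM. Of the T-cell markers 2 of 4 had one, at up to 18.1 CPM with CD3E and CD2 at 0, and of the myeloid markers 1 of 4, CD14 at 13.1 CPM. All 3 plasma cell markers had one, at 7.77 to 43.6 CPM. The H3K27ac libraries also differed on 5 peaks of unplaced contigs, where DMSO replicate 1 had 447 CPM and replicate 2 had 72.8 CPM, the 150 nM replicates 374 and 46.4 CPM, and the 500 nM replicates 409 and 327 CPM. Where adding this split to the model changed a call in the family, that value is given below. The H3K4me3 libraries at 150 nM differed from each other by less than sampling noise, with a chi-square of 0.941 per degree of freedom. Because the first DMSO and first 150 nM libraries also stood at 0.962, the 150 nM libraries were kept as 2.

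At 500 nM the clearest change in the family was a loss of H3K4me3 from the far end of BCL2, with a small loss at the start of BAK1. Of the 10 start peaks 0 were called higher and 3 lower (BAK1, BCL2L1 and BCL2), whereas with loess offsets BCL2 was at 0.02 and BCL2L11, BBC3 and PMAIP1 were called higher. Of the 25 tested H3K4me3 peaks, 10 passed an adjusted p of 0.05 for 500 nM against DMSO (edgeR quasi-likelihood test, Benjamini-Hochberg adjustment over all peaks of the mark). The background was the same, since 39.4% of all 20402 tested H3K4me3 peaks were called. The family count split into 3 higher and 7 lower, against 20.7% higher and 18.7% lower over all peaks, and became 5 higher and 6 lower with loess offsets and 4 higher and 6 lower with scaling to the total count. That last scaling also moved the share of higher calls over all peaks from 52.5% to 63.1%. The median log2 fold change of the 25 peaks was -0.006, equal to the median over all tested peaks. The family's share of called peaks, 40%, was thus near the background, and the account below is of single loci.

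H3K27ac changed at 1 of the 94 tested peaks, a higher one inside BCL2, where 0.923% of all 54037 tested peaks were called and 0.692% were called higher. A further 6 family peaks had an unadjusted p under 0.05, making 7 in all, compared with 6208 over all tested peaks. By DESeq2 the calls in the family numbered 5 for H3K4me3 and 0 for H3K27ac. The median H3K27ac log2 fold change of the family was 0.03 and that of all tested peaks -0.004. In all, 14 family peaks were called in at least 1 comparison, 8 at BCL2, 5 at BCL2L1 and 1 at BAK1. These were 12 of the 25 H3K4me3 peaks, 48% beside 46.4% of all tested peaks, and 2 of the 94 H3K27ac peaks, 2.13% beside 1.61%, so both shares were near the background.

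The genes differed widely in how much CpG-rich sequence preceded their starts. RefSeq promoter windows on GRCh38.p14 were available for 9 of the 10 genes, all but MCL1. Of the 250 bases before the start, PMAIP1 had 36 CG dinucleotides and BCL2L11 had 34, BAK1 had 5 and BCL2A1 had 2. The median over 35116 promoters was 11, with 22 for the 15576 whose start lay in an H3K4me3 peak and 4 for the other 19540. These 4 windows are shown because they span the range of the family, from the most CpG-rich to the gene with almost no H3K4me3, and include BAK1, whose mark fell at 500 nM. Capitals mark every CG dinucleotide, which reads the same on both strands.
PMAIP1, chr18:59899746-59899995, strand +: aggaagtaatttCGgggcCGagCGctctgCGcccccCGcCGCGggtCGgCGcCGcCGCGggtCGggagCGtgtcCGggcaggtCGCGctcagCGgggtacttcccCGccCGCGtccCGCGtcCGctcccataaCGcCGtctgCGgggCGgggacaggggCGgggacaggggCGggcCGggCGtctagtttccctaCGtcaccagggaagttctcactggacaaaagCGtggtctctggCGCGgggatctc
BCL2L11, chr2:111120664-111120913, strand +: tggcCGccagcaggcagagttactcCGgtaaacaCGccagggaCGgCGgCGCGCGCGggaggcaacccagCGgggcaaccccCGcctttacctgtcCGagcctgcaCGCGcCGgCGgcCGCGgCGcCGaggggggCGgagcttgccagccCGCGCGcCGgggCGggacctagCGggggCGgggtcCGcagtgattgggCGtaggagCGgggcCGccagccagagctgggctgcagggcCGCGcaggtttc
BAK1, chr6:33580277-33580526, strand -: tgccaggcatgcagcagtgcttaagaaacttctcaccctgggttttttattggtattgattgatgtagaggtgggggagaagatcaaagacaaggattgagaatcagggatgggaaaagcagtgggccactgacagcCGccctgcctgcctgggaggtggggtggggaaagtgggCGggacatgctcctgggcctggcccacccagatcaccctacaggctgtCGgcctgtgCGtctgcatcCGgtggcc
BCL2A1, chr15:79971197-79971446, strand -: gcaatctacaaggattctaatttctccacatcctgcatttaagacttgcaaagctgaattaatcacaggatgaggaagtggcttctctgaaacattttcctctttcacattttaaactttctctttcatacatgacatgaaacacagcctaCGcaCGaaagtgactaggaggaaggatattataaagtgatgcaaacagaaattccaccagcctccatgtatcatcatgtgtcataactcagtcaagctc

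BAK1, with 5 CG dinucleotides before its start, carried more H3K4me3 per kb than PMAIP1 with 36. Its whole start peak, of 2258 bp, held less in DMSO, 98.6 CPM beside 191 CPM over 6071 bp at PMAIP1. Other genes went the other way, since BCL2L11 with 34 was the highest per kb and BBC3 with 4 was the second lowest. In DMSO, H3K4me3 per kb of the start peak was highest at BCL2L11, 59.9 ± 1.1 CPM per kb (SD). It was followed by BAK1 at 43.6 ± 1.0, MCL1 at 41.8 ± 0.13, BAX at 40.7 ± 1.26 and BCL2L1 at 40.7 ± 1.05 CPM per kb. The replicates of BAX and BCL2L1 overlapped, so their order is not resolved. Below them came BCL2 at 37.7 ± 1.16, PMAIP1 at 31.5 ± 0.233, BID at 24.3 ± 0.775 and BBC3 at 21.6 ± 0.752 CPM per kb. BCL2A1, whose only H3K4me3 peak of 878 bp ended just short of its start, stood far below at 3.0 ± 0.0322 CPM per kb. H3K27ac per kb of the start peak ran in another order, led by BCL2 at 36.6 ± 0.193 CPM per kb and again ending with BCL2A1, at 7.34 ± 1.0. From BAK1 to BCL2L11, the third to the seventh in that order, each gene's replicates overlapped those of the next, so that order is not resolved either. For BCL2A1 and BBC3 no H3K4me3 peak overlapped the annotated start and the nearest was used, and for MCL1 the most abundant peak was used. For H3K27ac that MCL1 peak lies 3715 bp outside the gene.

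**Figure D1:**
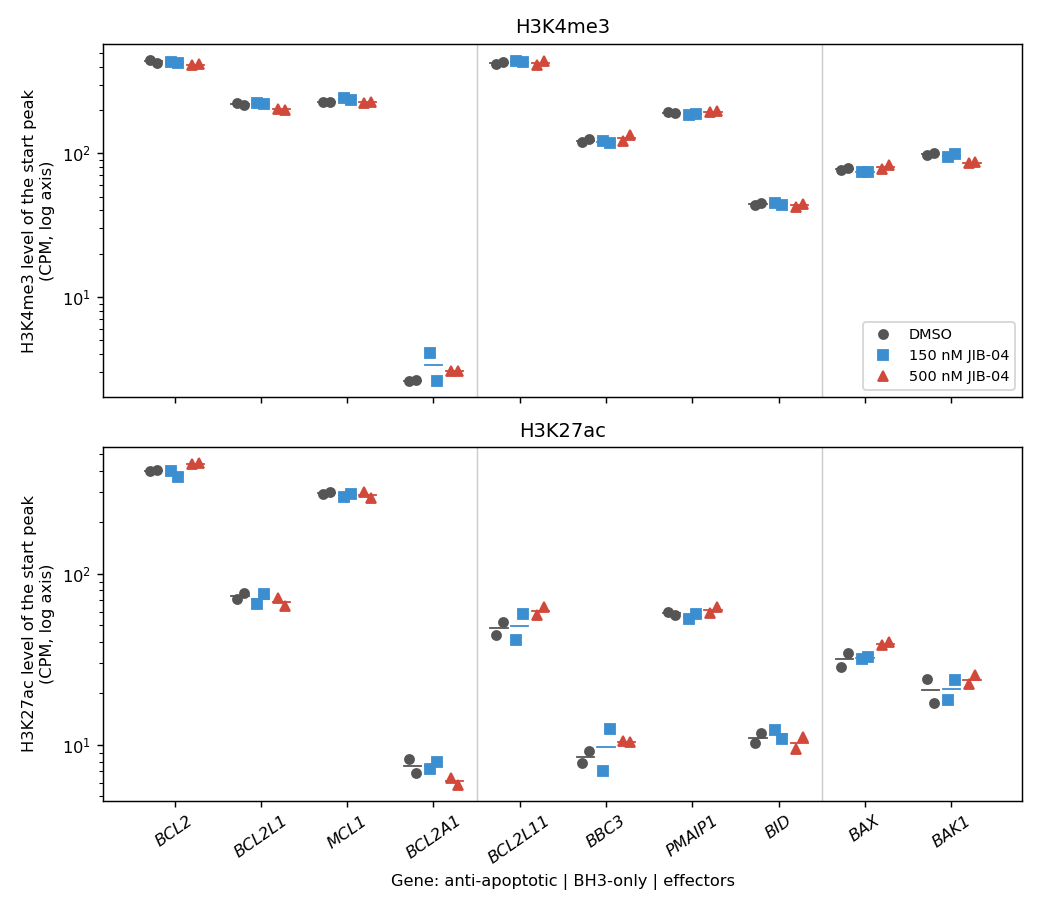
Level of the start peak of each gene (CPM, log axis) for H3K4me3 above and H3K27ac below, with 1 symbol per library, a short line at each group mean and genes ordered as anti-apoptotic, BH3-only and effector. BCL2 and BCL2L11 have the highest mean H3K4me3, and BCL2A1 has the lowest mean in both marks with each treatment. The H3K27ac peak shown for MCL1 lies outside the gene.

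BCL2 encodes the founding anti-apoptotic protein and spans chr18:63123346-63320090 on the minus strand. It held 9 H3K4me3 and 33 H3K27ac peaks, the most of any of the 10 genes. Its start peak, chr18:63312001-63323538, was the 4th longest H3K4me3 peak and the 6th most abundant in DMSO of all 21268. Levels there were 444 and 425 CPM in DMSO, 427 and 426 CPM at 150 nM, and 410 and 416 CPM at 500 nM. Both 500 nM libraries lay below both DMSO libraries, by little. Of all tested H3K4me3 peaks 33.9% had a lower log2 fold change at 500 nM against DMSO, and 41.5% of the 4081 most abundant. For 500 nM against DMSO the log2 fold change was -0.08 (SE 0.03, edgeR adjusted p = 0.0233). That call was lost with scaling to the total count, a mean count of at least 50, DESeq2, the 4 libraries of the comparison alone, and without DMSO replicate 1 or 500 nM replicate 1, and with loess offsets the value was 0.02. H3K27ac at the start was 400 and 403 CPM in DMSO, 401 and 370 CPM at 150 nM, and 441 and 442 CPM at 500 nM. Although both 500 nM libraries were the highest, the log2 fold change of 0.14 (SE 0.07) had an edgeR adjusted p of 0.486.

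The distal end of BCL2, on its 3′ side, carried the 3 changes with the smallest p-values in the family. A single H3K27ac peak of 37192 bp, chr18:63126157-63163348, covered it, the 3rd longest and the 2nd most abundant H3K27ac peak of 63580. Within it lay 3 abundant H3K4me3 peaks, centred 165063, 175264 and 181891 bp downstream of the start, and a small one overlapped its end. The most distant of the 3, chr18:63136569-63139187, had 64.2 and 59.4 CPM in DMSO, 60.1 and 58.8 CPM at 150 nM, and 34.9 and 31.8 CPM at 500 nM. The 500 nM libraries were far below all 4 others, which lay together. Between 500 nM and DMSO its log2 fold change was -0.89 (SE 0.06, edgeR adjusted p = 2.5e-18).

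The middle peak, chr18:63141059-63147951, had 161 and 149 CPM in DMSO, 159 and 149 CPM at 150 nM, and 115 and 101 CPM at 500 nM. Its log2 fold change was -0.51 (SE 0.04, edgeR adjusted p = 5.24e-15). The peak nearest the start, chr18:63149991-63159421, had 185 and 174 CPM in DMSO, 193 and 181 CPM at 150 nM, and 125 and 114 CPM at 500 nM, and fell by 0.59 on the log2 scale (SE 0.04, edgeR adjusted p = 7.48e-19). In both, the 500 nM libraries were the 2 lowest and the 150 nM libraries lay with DMSO. All 3 peaks stayed below 0 and called in the 14 alternative fits, with log2 fold changes of -0.97 to -0.83, -0.62 to -0.43 and -0.67 to -0.52. Only 2.85%, 6.7% and 5.51% of all tested H3K4me3 peaks had a lower log2 fold change than these 3, and among the 4081 most abundant peaks, which include the middle peak and the one nearest the start but not the most distant, the shares below those 2 were 0.882% and 0.564%. The small peak at the very end, chr18:63126130-63126803, had 9.15 and 8.55 CPM in DMSO and 9.78 and 9.8 CPM at 500 nM, a log2 fold change of 0.14 (SE 0.15, edgeR adjusted p = 0.491).

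H3K27ac over the same stretch did not pass the test. The long peak, singled out after its values were seen, had 1618 and 1713 CPM in DMSO, 1580 and 1638 CPM at 150 nM, and 1692 and 1662 CPM at 500 nM. The groups at 500 nM and DMSO overlapped. The log2 fold change was 0.01 (SE 0.06, edgeR adjusted p = 0.976) and ranged from -0.04 to 0.05 over 15 alternative fits, none of which called it. The difference in change between the marks was not tested.

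**Figure D2:**
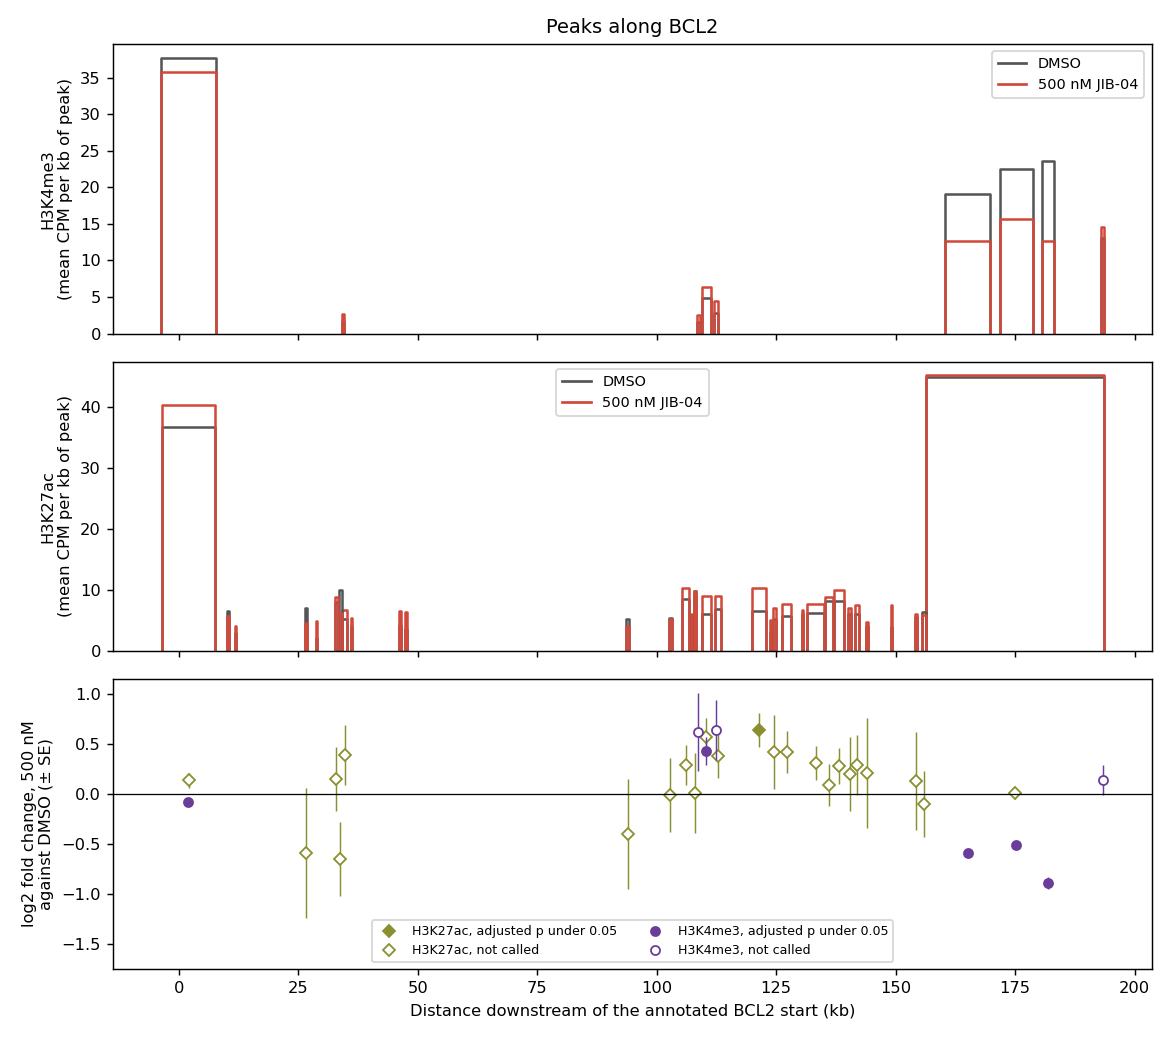
Peaks along BCL2 by distance downstream of the annotated start (kb). The upper panels show mean CPM per kb of peak over 2 libraries for H3K4me3 and H3K27ac with DMSO or 500 nM JIB-04, and the lowest panel shows the log2 fold change between these 2 groups with its SE, filled where the adjusted p was under 0.05. The 3 abundant distal H3K4me3 peaks lie at -0.89, -0.51 and -0.59 beneath an H3K27ac peak at 0.01, and the H3K4me3 start peak, at -0.08, is at 0.02 with loess offsets.

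Counting reads within BCL2 alone needs no scaling between libraries. For H3K4me3 it reuses the counts of the distal peaks called above, so it describes the same change and is not separate support. The distal domain took 47.9% (95% Wilson interval 46.9 to 48.8%) and 47.1% (46.1 to 48.2%) of the H3K4me3 counts in BCL2 peaks in DMSO, and 49.1% and 47.5% at 150 nM. At 500 nM it took 40.0% (38.9 to 41.0%) and 37.1% (36.0 to 38.3%). These intervals cover counting error only, and those at 500 nM lie wholly below those of the other 4 libraries. For each distal-to-start count ratio, DMSO gave 0.943 and 0.919, 150 nM gave 0.989 and 0.93, and 500 nM gave 0.696 and 0.615. The mean share was 47.5% ± 0.512 (SD, n = 2) in DMSO and dropped by 8.94 percentage points to 38.6% ± 2.0 at 500 nM. A two-sided exact permutation test gave p = 0.333, the smallest that 2 libraries against 2 allow. The distal share of H3K27ac was 73.7% and 74.8% with DMSO, 73.7% and 75.4% with 150 nM, and 71.6% and 72.0% with 500 nM. Those at 500 nM were the 2 lowest, but the mean dropped by 2.46 points only, from 74.3% ± 0.793 to 71.8% ± 0.246 (SD, n = 2, two-sided exact permutation p = 0.333, also the smallest possible). The level of the long H3K27ac peak itself overlapped between these groups. The rest of the total was higher at 500 nM, with 441 and 442 CPM at the start beside 400 and 403 CPM in DMSO. The peaks between summed to 229 and 206 CPM beside 177 and 174 CPM.

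**Figure D3:**
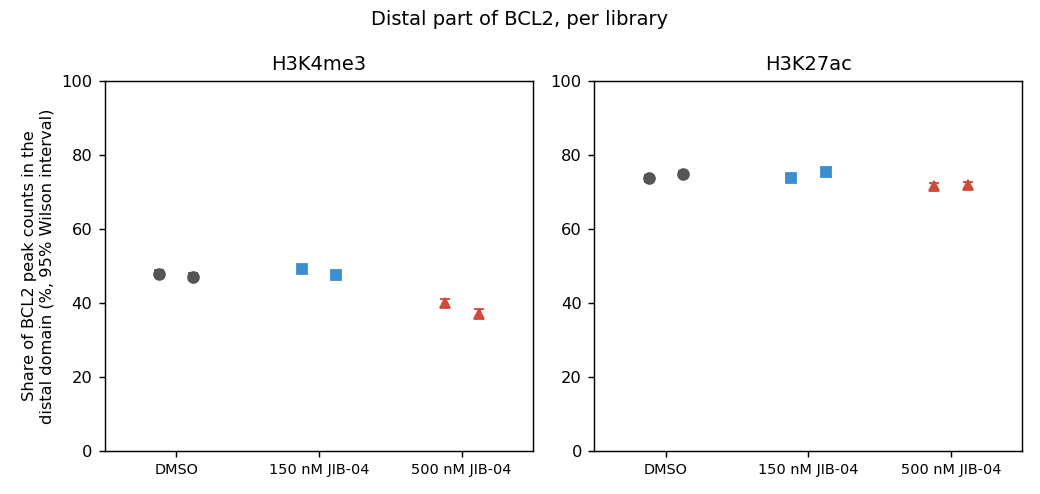
Share of all BCL2 peak counts that fell in the distal domain (%), 1 symbol per library with its 95% Wilson interval, for H3K4me3 on the left and H3K27ac on the right. The H3K4me3 share is 37.1% and 40.0% at 500 nM and 47.1% to 49.1% in the other 4 libraries, and the H3K27ac share lies between 71.6% and 75.4% in all 6.

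Between the distal domain and the start, weaker BCL2 peaks leaned the other way. The H3K4me3 peak chr18:63208478-63210361 had 8.49 and 9.72 CPM in DMSO, 7.7 and 8.93 CPM at 150 nM, and 13.4 and 10.8 CPM at 500 nM. The 500 nM libraries were the 2 highest. The log2 fold change was 0.43 (SE 0.14, edgeR adjusted p = 0.0134), and 80% of all tested H3K4me3 peaks had a lower value. The call was lost with loess offsets, with DESeq2, without DMSO replicate 1 and without 500 nM replicate 1, where the value was 0.26. The H3K27ac peak over it, chr18:63208483-63210386, had a log2 fold change of 0.57 (SE 0.2) with an edgeR adjusted p of 0.206.

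The only H3K27ac peak of the family called at 500 nM against DMSO, chr18:63196937-63199761, had 17.2 and 19.9 CPM in DMSO, 15.3 and 18.7 CPM at 150 nM, and 30.0 and 28.2 CPM at 500 nM. Both libraries at 500 nM stood clear of the 4 others. It rose by 0.64 on the log2 scale (SE 0.17, edgeR adjusted p = 0.0388), and the call was lost with DESeq2 and without any 1 of the 2 DMSO or 2 500 nM libraries, where the value stayed between 0.54 and 0.76. Of the 31 H3K27ac peaks between the domain and the start 21 were tested, of which 16 had a log2 fold change above 0 and 5 below, with a median of 0.21. Their summed level was 177 and 174 CPM in DMSO, 161 and 163 CPM at 150 nM, and 229 and 206 CPM at 500 nM. Both 500 nM sums were thus the highest, while 11 of the 21 single peaks had both 500 nM libraries above both DMSO libraries and 1 had both below. Over all 54037 tested H3K27ac peaks these shares were 22.4% and 22.2%.

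BCL2L1 encodes BCL-XL and lies at chr20:31664452-31723963 on the minus strand, with 5 H3K4me3 and 22 H3K27ac peaks. Its start peak, chr20:31718887-31724273, had 223 and 215 CPM of H3K4me3 in DMSO, 222 and 220 CPM at 150 nM, and 204 and 201 CPM at 500 nM. The 500 nM libraries were the 2 lowest by a narrow margin. The log2 fold change was -0.12 (SE 0.03, edgeR adjusted p = 0.00234), and the call was lost with loess offsets, where the value was -0.04, with DESeq2 and without DMSO replicate 1. H3K27ac at the start had a log2 fold change of -0.11 (SE 0.11, edgeR adjusted p = 0.76).

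Inside and beyond the gene, 2 weak BCL2L1 peaks rose. The peak chr20:31675009-31676254, where BCL2L1-AS1 overlaps the gene, had 10.5 and 7.86 CPM in DMSO, 11 and 11.8 CPM at 150 nM, and 13.9 and 13.5 CPM at 500 nM. Here the 150 nM libraries lay between the other groups. Its log2 fold change of 0.56 (SE 0.14, edgeR adjusted p = 8.01e-04) stayed called in the 14 alternative fits, from 0.38 to 0.80. The peak chr20:31661427-31662399, past the 3′ end, went from 7.68 and 7.86 CPM in DMSO to 13.3 and 9.6 CPM at 500 nM, a log2 fold change of 0.58 (SE 0.16, edgeR adjusted p = 0.00194). Without 500 nM replicate 1 that value was 0.30 and the call was lost, as with DESeq2. A peak of 352 bp, chr20:31684436-31684787, fell from 1.71 and 2.55 CPM to 0.935 and 0.511 CPM, a log2 fold change of -1.49 (SE 0.42, edgeR adjusted p = 0.00348) that rests on very few reads and was lost with DESeq2 and without DMSO replicate 2 or 500 nM replicate 2. The H3K27ac peaks over these 3 had log2 fold changes of 0.155, 0.018 and 0.015, none called.

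MCL1 lies at chr1:150574558-150579610 and encodes a short-lived anti-apoptotic protein. Neither of its H3K4me3 peaks was called at 500 nM against DMSO. The main one, chr1:150575259-150580707, had 227 and 228 CPM in DMSO, 240 and 234 CPM at 150 nM, and 223 and 228 CPM at 500 nM. The 500 nM and DMSO libraries overlapped, with a log2 fold change of -0.02 (SE 0.03, edgeR adjusted p = 0.719) that was 0.07 with loess offsets. Against 150 nM it was -0.07 (SE 0.03, edgeR adjusted p = 0.0505). There the peak was called lower with no filter on low counts, with the 4 libraries of the comparison alone and with the replicate block. The value against 150 nM was -0.08 without either DMSO library and -0.09 without 500 nM replicate 2. The most abundant H3K27ac peak in its window, chr1:150561113-150570843, lies outside the gene over ADAMTSL4-AS1 and had a log2 fold change of -0.03 (SE 0.08, edgeR adjusted p = 0.923). It served as the H3K27ac start peak of MCL1. The most abundant H3K27ac peak overlapping the gene, chr1:150577719-150580627, had 71 and 72.8 CPM in DMSO and 72 and 74.5 CPM at 500 nM. Its log2 fold change was 0.025 (SE 0.11, edgeR adjusted p = 0.961).

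BCL2A1, an anti-apoptotic target of NF-kB at chr15:79960892-79971196, was weakly marked throughout. Its H3K4me3 peak, chr15:79970307-79971184, had 2.61 and 2.65 CPM in DMSO, 4.12 and 2.61 CPM at 150 nM, and 3.06 and 3.06 CPM at 500 nM, and no H3K27ac peak overlapped it. The log2 fold change of 0.22 (SE 0.28, edgeR adjusted p = 0.56) was -0.10 with loess offsets. At this depth a difference of that size was not detectable.

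The BH3-only genes encode the sensors that start the pathway. None of their H3K4me3 or H3K27ac peaks was called in any of the 3 comparisons in the main fit. That fit used filterByExpr, TMM scaling, all 6 libraries and treatment as the only term. BCL2L11 encodes BIM and lies at chr2:111120914-111168445. Its start peak, chr2:111117143-111124240, which also overlaps ACOXL, had 420 and 431 CPM of H3K4me3 in DMSO, 437 and 429 CPM at 150 nM, and 412 and 435 CPM at 500 nM. The 3 groups overlapped, and the log2 fold change was -0.006 (SE 0.03, edgeR adjusted p = 0.885), against 0.09 (edgeR adjusted p = 3.29e-04) with loess offsets. The H3K27ac peak just inside the gene, chr2:111120941-111123516, had 43.7 and 52.3 CPM in DMSO, 40.8 and 58.1 CPM at 150 nM, and 57.8 and 64.1 CPM at 500 nM. Both 500 nM libraries exceeded both DMSO libraries, but only the second of them exceeded the second 150 nM library. Its log2 fold change was 0.34 (SE 0.13) with an edgeR adjusted p of 0.268. With the contig split as a term the value was 0.55 (edgeR adjusted p = 0.00141), and it was also called with the 4 libraries of the comparison alone and without either 150 nM library. Against 150 nM it was called with the split as a term, at 0.51 (SE 0.12, edgeR adjusted p = 0.00385), and without 150 nM replicate 2, at 0.58.

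BBC3 encodes PUMA, a p53 target, at chr19:47220824-47232860. Its H3K4me3 peak, chr19:47226221-47231864, which covers MIR3190 and MIR3191, had 119 and 125 CPM in DMSO, 121 and 117 CPM at 150 nM, and 122 and 133 CPM at 500 nM. The groups overlapped, with a log2 fold change of 0.07 (SE 0.04, edgeR adjusted p = 0.201) that passed the threshold with scaling to the total count, at 0.10, with loess offsets, at 0.13, and without 500 nM replicate 1, at 0.13. Against 150 nM the BBC3 value was 0.09 (SE 0.04, edgeR adjusted p = 0.0805). The peak was called there with a mean count of at least 50, at 0.11, with scaling to the total count, at 0.12, and with loess offsets, at 0.15. Without 500 nM replicate 1 the value against 150 nM was 0.15. PMAIP1 encodes NOXA, the partner of MCL1, at chr18:59899996-59904305. Its start peak, chr18:59898795-59904865, had 192 and 190 CPM in DMSO, 185 and 188 CPM at 150 nM, and 192 and 195 CPM at 500 nM. The log2 fold change against DMSO was 0.02 (SE 0.03, edgeR adjusted p = 0.681), and that comparison was called only with loess offsets, at 0.09. Against 150 nM it was 0.05 (SE 0.03, edgeR adjusted p = 0.195), called with scaling to the total count, at 0.09, and with loess offsets, at 0.13. BID, cleaved by caspase-8 to link death receptors to mitochondria, lies at chr22:17734138-17774665. Its start peak, chr22:17773005-17774829, had 43.4 and 45.4 CPM in DMSO, 44.9 and 43.4 CPM at 150 nM, and 42.3 and 44.4 CPM at 500 nM, with a log2 fold change of -0.04 (SE 0.06, edgeR adjusted p = 0.701).

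Of the effectors, BAK1 lost some H3K4me3 at its start and BAX did not pass the test at 500 nM against DMSO. BAK1 lies at chr6:33572552-33580276, and its start peak, chr6:33578168-33580425, had 96.8 and 100.0 CPM in DMSO, 94.4 and 98.1 CPM at 150 nM, and 85.3 and 86.3 CPM at 500 nM. The 500 nM libraries were the 2 lowest and close together. The log2 fold change was -0.20 (SE 0.04, edgeR adjusted p = 2.02e-04), called in all 14 alternative fits from -0.23 to -0.14. H3K27ac nearest the start had 24.4 and 17.6 CPM in DMSO and 22.6 and 25.6 CPM at 500 nM, and these overlapped. The tested H3K4me3 peaks at other genes whose pattern over the 6 libraries was most like that of the BAK1 start lay at PLIN2 and SPAG16, with Pearson r of 0.9971 and 0.9970 on log2 CPM. Since 1922 of 20401 peaks had r above 0.9 over the same 6 libraries, that likeness is a description only.

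BAX lies at chr19:48954875-48961798, and its start peak, chr19:48954353-48956258, had 75.9 and 79.3 CPM of H3K4me3 in DMSO, 74.2 and 74.2 CPM at 150 nM, and 78.2 and 82.7 CPM at 500 nM. The log2 fold change was 0.05 (SE 0.05, edgeR adjusted p = 0.42). H3K27ac there was 28.7 and 34.7 CPM in DMSO, 31.7 and 32.8 CPM at 150 nM, and 38.2 and 39.9 CPM at 500 nM. The 500 nM libraries were the 2 highest, but the log2 fold change of 0.30 (SE 0.14) had an edgeR adjusted p of 0.41. The second H3K4me3 peak in the BAX window lies over FTL, and that in the BID window over LINC00528, and neither was called.

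**Figure D4:**
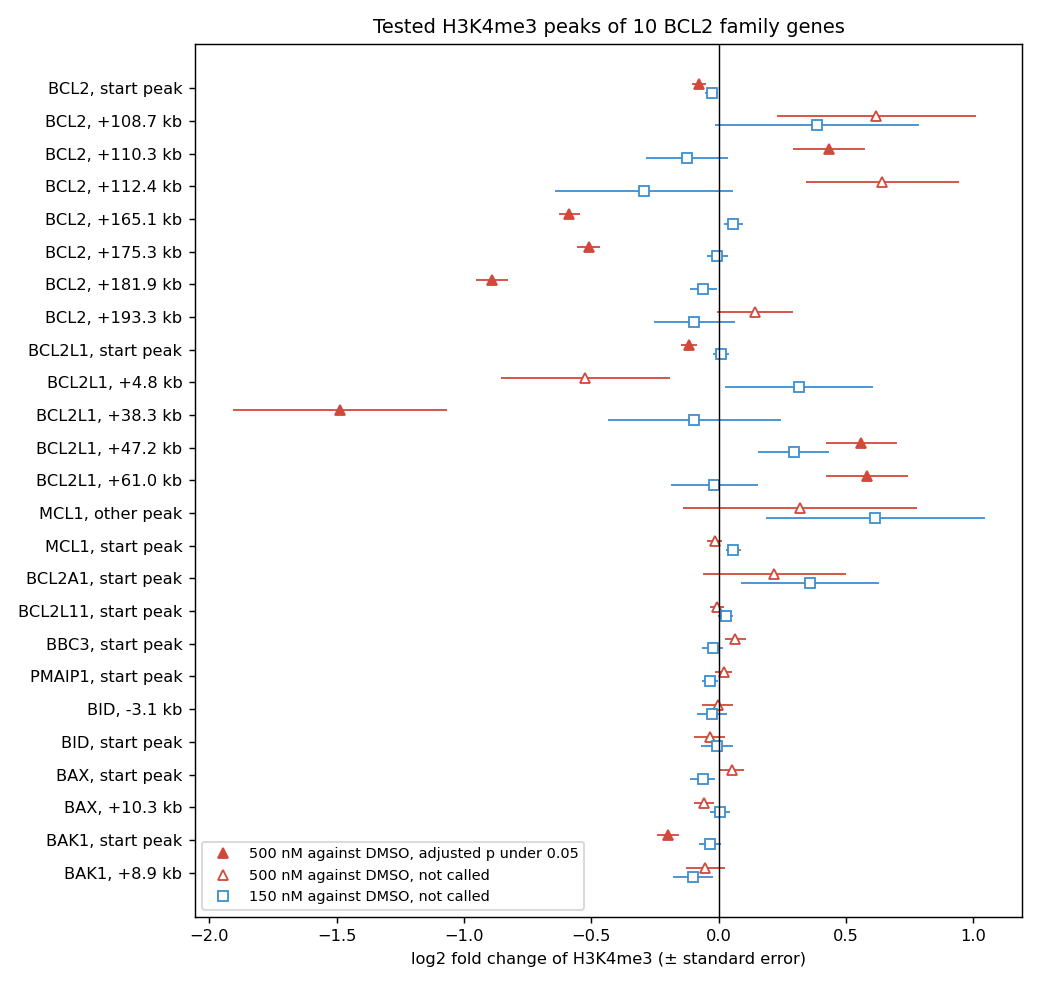
Log2 fold change of H3K4me3 with its SE for the 25 tested peaks of the 10 genes, at 500 nM (triangles) and 150 nM (squares) against DMSO, filled where the edgeR adjusted p was under 0.05. Distances are in kb from the annotated start nearest to the middle of the peak. At 500 nM 3 filled symbols lie above 0 and 7 below (5 and 6 with loess offsets), and no peak is filled at 150 nM.

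At 150 nM no family peak of either mark passed the test against DMSO. Among H3K4me3 peaks edgeR called 0 of 25, as over all peaks (0%), with 1 of 25 at an unadjusted p under 0.05 compared with 950 of 20402 over all peaks. For H3K27ac it called 0 of 94, where 0.00185% of all peaks were called, with 4 of 94 and 2128 of 54037 at an unadjusted p under 0.05. DESeq2 called 0 peaks of the family in both marks. Between the doses, 500 nM against 150 nM, 10 of 25 H3K4me3 peaks were called, 3 higher and 7 lower, where 39.2% of all peaks were called, 20.5% higher and 18.6% lower. This split became 6 higher and 7 lower with scaling to the total count and 7 higher and 6 lower with loess offsets. This comparison shares its 500 nM libraries with that against DMSO.

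The 3 abundant distal BCL2 peaks had log2 fold changes of -0.83, -0.51 and -0.64 at 500 nM against 150 nM, with edgeR adjusted p of 7.65e-17, 9.25e-15 and 1.09e-20. The BAK1 start had -0.17 (SE 0.04, edgeR adjusted p = 0.00197) and the BCL2L1 start -0.12 (SE 0.03, edgeR adjusted p = 0.00111). DESeq2 called neither start here. The BAK1 call was also lost without 150 nM replicate 2, and the BCL2L1 call with loess offsets. The BCL2 start did not pass, at -0.05 (edgeR adjusted p = 0.174). With loess offsets the starts of BCL2 and BCL2L11 were called higher, at 0.06 and 0.08. The BCL2 peak chr18:63207025-63207729 was called here but not against DMSO, at 0.94 (SE 0.32, edgeR adjusted p = 0.0157). It had only 31 and 35 counts at 500 nM and 13 and 22 at 150 nM. Loess offsets, DESeq2 and leaving out 150 nM replicate 1 or 500 nM replicate 2 lost this call. The BCL2L1 peak chr20:31717789-31718351 was called here at -0.84 (SE 0.31, edgeR adjusted p = 0.0291), on 17 and 17 counts beside 34 and 28. DESeq2 and leaving out either 150 nM library or 500 nM replicate 1 lost that call. Against DMSO the BCL2L1 peak was called only with loess offsets, at -0.905. H3K27ac had 2 called peaks of 94, both higher and both in BCL2, where 1.27% of all peaks were called and 1.09% called higher. They were chr18:63196937-63199761, at 0.77 (SE 0.17, edgeR adjusted p = 0.00454), and chr18:63184742-63188231, at 0.81 (SE 0.18, edgeR adjusted p = 0.00526). The latter had 23.7 and 19.7 CPM in DMSO, 18.3 and 12.4 CPM at 150 nM, and 26.9 and 26.6 CPM at 500 nM. DESeq2 called neither, and both calls were lost without either 500 nM library. The latter was also lost without 150 nM replicate 2. Without 150 nM replicate 1 the latter peak was at 1.10 for 500 nM against 150 nM and at -0.78 for 150 nM against DMSO. The split term added BCL2L11, which made 3 calls. Over all H3K27ac peaks that term gave 677 higher and 236 lower calls, beside 587 and 100 without it.

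An H3K27ac peak overlapped 24 of the 26 H3K4me3 peaks, whereas only 33 of 104 H3K27ac peaks met an H3K4me3 peak of the family and 71 did not. Of those 71, 64 belonged to BCL2, BCL2L1 and BCL2L11. Of the 25 tested H3K4me3 peaks, 8 had both 500 nM libraries above both DMSO libraries and 9 had both below, 68% in all and the same share as over all tested peaks. For H3K27ac this was 24 above and 12 below of 94, 38.3% compared with 44.6% over all peaks.

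Other genes of the intrinsic pathway were read at their start peaks in the same fit. Among 10 further BCL2 family genes 9 were tested for H3K4me3 at 500 nM against DMSO, of which 3 rose and 3 fell, with a median log2 fold change of 0.001. Over all tested peaks 20.7% were called higher and 18.7% lower. The split was 3 and 1 with scaling to the total count, 2 and 1 with loess offsets and 2 and 0 with DESeq2. HRK, a BH3-only gene, went from 109 and 102 CPM in DMSO to 136 and 143 CPM at 500 nM, a log2 fold change of 0.40 (SE 0.04, edgeR adjusted p = 1.85e-12). BCL2L10, an anti-apoptotic gene, rose from 5.55 and 7.76 CPM to 15.9 and 15.0 CPM, by 1.24 on the log2 scale (SE 0.15, edgeR adjusted p = 3.76e-10). BCL2L2, which encodes BCL-W, fell from 132 and 132 CPM to 118 and 117 CPM, with a log2 fold change of -0.17 (SE 0.04, edgeR adjusted p = 3.94e-04). In these 3 genes the 500 nM libraries did not overlap DMSO, as in 68% of all tested H3K4me3 peaks.

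Downstream of the mitochondria, 0 of 14 genes rose and 6 fell, beside 20.7% and 18.7% over all tested peaks, with a median of -0.09 beside -0.006. With scaling to the total count 4 of them fell, and with loess offsets or DESeq2 2. BIRC3, an inhibitor of apoptosis, had -0.17 (SE 0.03, edgeR adjusted p = 1.34e-05), and APAF1, the apoptosome scaffold, -0.13 (SE 0.03, edgeR adjusted p = 9.77e-04). Of 5 outer membrane partners 0 rose and 3 fell, where 1 fell with scaling to the total count or with DESeq2 and 2 with loess offsets. Among the 3 was BNIP3, a mitochondrial protein of the hypoxia response, at -0.64 (SE 0.04, edgeR adjusted p = 3.61e-20). For scale, the 4081 most abundant H3K4me3 peaks had a median log2 fold change of -0.06. For H3K27ac the only called start peak of these 29 genes was that of BCL2L13, which rose from 47.4 and 51.1 CPM to 68.4 and 68.1 CPM (log2 fold change 0.47, SE 0.12, edgeR adjusted p = 0.0348). DESeq2 did not call it.

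The 5 kb limit of the windows left few peaks just outside. Between 5 and 10 kb from the genes lay 3 further H3K4me3 peaks, with log2 fold changes of 0.60 near MCL1 over ADAMTSL4-AS1, 1.33 near BBC3 and 0.06 near BAK1. The first and the second passed the test (edgeR adjusted p = 0.0256 and 0.0023), so a limit of 10 kb gives 5 higher and 7 lower calls. There were also 12 further H3K27ac peaks, from -1.40 to 0.62. Just inside the limit lay 2 H3K27ac peaks, 4949 bp from BAK1 at 0.43 and 4909 bp from BAX at -0.02. The farthest H3K4me3 members lay well inside it, 2070 bp from BID over LINC00528 at -0.004 and 2053 bp from BCL2L1 at 0.58.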

How the data were processed

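The deposited tables hold raw read counts per consensus peak, 1 table per mark with 6 libraries each, and are not normalized. Per the file headers, the authors counted with featureCounts 2.0.1, letting a read count in several peaks at a minimum overlap fraction of 0.2. featureCounts was run in paired mode by those headers, but the labels describe single reads of 50 bp, which leaves the counted unit, read or fragment, unsettled. Per the submitters' processing notes, Trim Galore 0.6.7, BWA 0.7.17-r1188, Picard 2.27.4, MACS2 2.2.7.1 and the build GRCh38 were used, in roles not given in the sources used here. Groups and doses came from the sample titles.

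Coordinates are the deposited ones with 1 added to the start. Each mark's whole table, all 6 libraries at once, was fitted in R 4.3.3 by edgeR 4.0.16 with filterByExpr by group, TMM, glmQLFit, glmQLFTest and Benjamini-Hochberg adjustment within each comparison. Standard errors come from the F statistic. Peaks named were each gene's start peak (overlapping or nearest the annotated start) and every called family peak, up to 5 per gene and mark by p, and other peaks and pathway genes were picked after their values were seen. The members, gene lists and tests were chosen with earlier results of these data known. On simulated counts with 200 peaks changed by 1 on the log2 scale, the fit recovered 81.5% of these 200 among 20075 H3K4me3 peaks and 44.5% of them among 51838 H3K27ac peaks for 500 nM against DMSO. Alternatives were other scalings, filters and windows, DESeq2 1.42.0, a replicate block, 4-library fits and leaving out each library. A term for the H3K27ac contig split was added after seeing the data. Exons, introns and untranslated regions were not analysed here.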

Additional observations from a re-analysis of the deposited data

How the results depend on the processing

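DESeq2 called fewer family peaks than edgeR: for H3K4me3 5 at 500 nM against DMSO and 3 against 150 nM, and for H3K27ac 0 and 0. H3K27ac at 500 nM against DMSO gave 2 calls with the 4 libraries of the comparison and 2 with the contig split as a term. Leaving out each library in turn gave 0 to 2 H3K27ac calls at 500 nM against DMSO, 0 to 4 against 150 nM and 0 to 1 for 150 nM against DMSO, and 7 to 10, 7 to 11 and 0 to 0 for H3K4me3. The calls over all peaks of each mark also varied among these fits. The cause was not tested. Over all peaks, DESeq2 called 17.1% and 17% of H3K4me3 and 0.211% and 0.37% of H3K27ac peaks in the same order, and for H3K27ac at 500 nM against DMSO the 4-library fit called 4.12% and the split term 2.36%. The labels do not say that replicate numbers pair libraries, and same-numbered replicates deviated together with r of 0.00262 to 0.133 over the 2 marks. The highest r, for H3K27ac in DMSO and 150 nM, was between groups whose replicates 1 and 2 also stood on opposite sides of the contig split. With the replicate block, 10 and 11 H3K4me3 and 1 and 2 H3K27ac family peaks were called at 500 nM against DMSO and against 150 nM. Of all H3K27ac peaks 1150 and 1186 were then called, in place of 499 and 687. Over all H3K4me3 peaks the block gave 4329 higher and 3945 lower calls against DMSO, and 4270 and 3923 against 150 nM. Without the block these were 4215 and 3819, and 4190 and 3798.

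Several H3K4me3 start peaks changed sign at 500 nM against DMSO. With scaling to the total count MCL1 was at 0.019 and BCL2L11 at 0.028. With loess offsets BCL2 was at 0.024, MCL1 at 0.065, BCL2A1 at -0.102 and BCL2L11 at 0.094. With a mean count of at least 50 MCL1 was at 0.007 and BCL2L11 at 0.016. Leaving out 1 library gave BCL2L11 -0.046 to 0.033 and BID -0.073 to 0.001 for H3K4me3, and MCL1 -0.083 to 0.022, BAK1 -0.014 to 0.442 and BID -0.239 to 0.009 for H3K27ac. Of the alternative values for 18 named H3K4me3 peaks, 215 kept direction and side of the threshold, 18 were no longer called, 5 became called and 11 changed sign. For 12 H3K27ac peaks these counts were 166, 5, 4 and 3. With median counts of 21 to 24, depth limits single H3K27ac peaks.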
